A study of Homo sapiens with 12 samples.

Results

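ATOH8, the ID genes (ID1, ID2, ID3, ID4) and the HES and HEY genes (HES1, HES4, HEY1, HEY2) encode helix-loop-helix transcription regulators, and 9 such genes were looked up in an array study of the BET inhibitor JQ1 in breast cancer cells. The genes were picked by symbol because ATOH8 stood out in the comparison of JQ1 with vehicle in MDA-MB-231, so the members were selected on these measured values. Of the 9 genes, 4 had an annotated probe set (transcript cluster) and were measured, ATOH8, HES4, HEY1 and HEY2, among 14884 genes in all. ID1, ID2, ID3, ID4 and HES1 were not analysed here. MDA-MB-231 and HCC70 are established human triple-negative breast cancer lines, and each was kept for 72 hours either with JQ1 at 500 nM or with its vehicle, DMSO at 0.1%. No genetic change was made in either line. RNA, 150 ng per sample, was labelled for 12 arrays of the Human Gene 2.0 ST type. Each of the 4 groups had 3 arrays, a number that limits how precise any value can be. Whether the samples of a group came from separate cultures is not stated in the labels, and the p-values therefore measure only a spread between samples that may be technical.

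Helix-loop-helix proteins pair through a shared fold and, where they also carry a basic stretch, bind short DNA elements called E-boxes. The E proteins, encoded by TCF3, TCF4 and TCF12, are the common partners of many tissue-specific activators. ID proteins lack the basic stretch and hold E proteins off DNA. HES and HEY proteins are repressors, and HES proteins recruit Groucho-type corepressors. Many HES and HEY genes are direct targets of Notch, whose cleaved intracellular part joins RBPJ and a Mastermind protein on DNA. ID genes, ATOH8, SMAD6 and SMAD7 are known targets of bone morphogenetic proteins (BMPs), which act through receptor-activated SMAD proteins. ATOH8 is the only mammalian member of the net family of atonal-related factors. JQ1 competes with acetylated histones for the bromodomains of BET proteins and so removes them from chromatin.

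The stretches upstream of the start sites are printed for 3 of the 4 measured members, and that of HEY1 is not. ATOH8 differed most of them with JQ1 in MDA-MB-231 and HEY2 differed most in HCC70. HES4, a further Notch-linked repressor, was called with JQ1 in neither line. Each holds the 250 bases before the RefSeq start of the gene, 5′ to 3′ on the gene's own strand, in build GRCh38.p14. They lie at chr2:85753741-85753990 (plus strand) for ATOH8, chr6:125749382-125749631 (plus strand) for HEY2 and chr1:1000098-1000347 (minus strand) for HES4. Capitals mark the letters GTGGGAA, an RBPJ recognition sequence, or TTCCCAC, the same letters on the other strand.
ATOH8: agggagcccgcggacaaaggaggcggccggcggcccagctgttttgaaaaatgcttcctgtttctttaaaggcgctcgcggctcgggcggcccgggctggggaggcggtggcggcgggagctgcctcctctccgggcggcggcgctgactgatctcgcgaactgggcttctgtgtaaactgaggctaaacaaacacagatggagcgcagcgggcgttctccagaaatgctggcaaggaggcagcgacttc
HEY2: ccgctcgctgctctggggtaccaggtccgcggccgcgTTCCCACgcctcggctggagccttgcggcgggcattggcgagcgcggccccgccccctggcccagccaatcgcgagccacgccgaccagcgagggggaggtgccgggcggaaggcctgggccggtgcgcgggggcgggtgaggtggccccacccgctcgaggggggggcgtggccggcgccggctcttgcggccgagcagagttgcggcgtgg
HES4: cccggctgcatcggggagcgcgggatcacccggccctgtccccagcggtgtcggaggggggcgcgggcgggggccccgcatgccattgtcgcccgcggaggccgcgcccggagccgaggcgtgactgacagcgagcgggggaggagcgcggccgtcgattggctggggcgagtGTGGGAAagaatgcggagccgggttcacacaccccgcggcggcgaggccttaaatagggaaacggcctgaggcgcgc
The GTGGGAA letters lay at bases -77 to -71 from the start in HES4 and, on the other strand, at -213 to -207 in HEY2. A further match in HEY2 spanned the start, from -4 to 3. Over 35116 RefSeq promoters of 300 bases (250 before the start and 50 after), 6.25% held GTGGGAA on either strand. GGCGCC, a GC-rich element that BMP-regulated SMADs can bind, was found in HEY2 at -38 to -33 and in 19.2% of all promoters. CACGNG, an E-box class that HES and HEY proteins bind, was in none of the 3 windows and in 30.5% of all promoters. ATOH8 held none of these motifs in its window. The GC content was 64.4% for ATOH8, 74.8% for HES4 and 79.2% for HEY2. A match of letters is a description and not a site of binding, which these arrays do not measure.

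The lines differed in lineage markers. Of 5 epithelial markers measured, EPCAM, KRT5 and KRT14 were higher in HCC70 vehicle than in MDA-MB-231 vehicle (log2 differences 2.90, 3.86 and 1.74), KRT18 was lower (-0.28), and KRT8 differed by -0.25 without a call. All 3 mesenchymal markers measured were lower in HCC70, with differences of -3.29 for VIM, -3.27 for ZEB1 and -2.40 for FN1. The hormone receptor genes ESR1 (4.89 in MDA-MB-231 and 5.09 in HCC70) and PGR (3.65 and 3.93) were near or under the lower quartile of the genes, which ran from 4.73 to 4.87 over the 12 arrays. BRD2 and HEXIM1, genes that commonly rise under BET inhibition, rose with JQ1 in both lines by 0.59 to 1.22. Some lineage markers also moved with JQ1. In MDA-MB-231 EPCAM fell by 1.74 and FN1 fell by 1.40, while KRT8 and KRT18 rose by 0.36 and 0.59. In HCC70 FN1 fell by 3.12, VIM fell by 1.72 and KRT14 fell by 1.03, while KRT8 and KRT18 rose by 0.45 and 0.85. Their part in the members' values was not tested. Of the 6 blood markers listed only CD14 and LYZ were measured, and of the 6 stromal, endothelial and adipocyte markers only PECAM1 and VWF. LYZ, PECAM1 and VWF had group means of 3.67 to 5.21, whereas the CD14 mean was 5.72 in MDA-MB-231 vehicle and 8.52 in HCC70 vehicle.

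**Figure D1:**
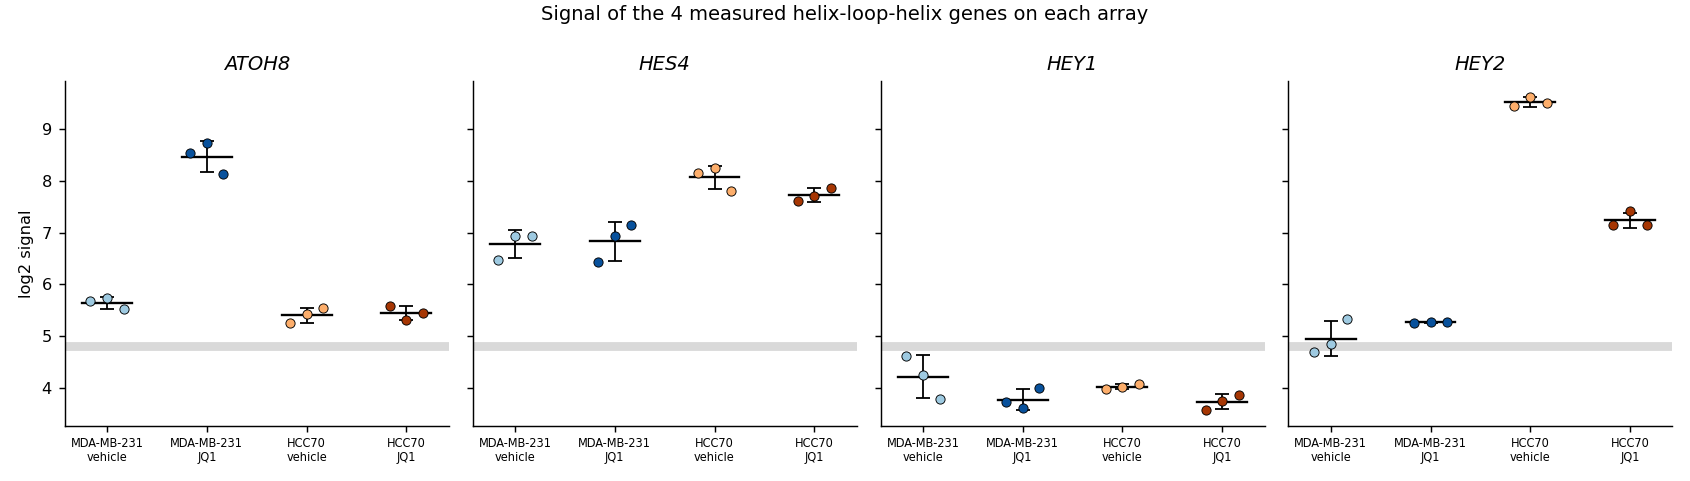
Log2 signal of ATOH8, HES4, HEY1 and HEY2 (vertical axis) on each of the 12 arrays by line and treatment (horizontal axis), with a point per array and the mean ± SD of 3 arrays as a bar. The grey band is the range of the arrays' lower quartiles, 4.73 to 4.87. ATOH8 stands apart in MDA-MB-231 with JQ1, HEY2 is high in HCC70 and lower there with JQ1, and all 12 HEY1 points lie under the band.

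ATOH8 was low in 3 of the 4 groups and high in MDA-MB-231 given JQ1. Its log2 signal in MDA-MB-231 was 5.69, 5.75 and 5.52 with vehicle and 8.53, 8.72 and 8.13 with JQ1. The JQ1 samples were all above the vehicle samples, and the lowest of them was also the replicate number whose vehicle sample was lowest. In HCC70 the signal was 5.25, 5.44 and 5.54 with vehicle and 5.58, 5.31 and 5.44 with JQ1, and the groups overlapped. The difference with JQ1 was 2.81 ± 0.14 (limma coefficient ± SE, 3 arrays a group, 95% interval 2.50 to 3.12), or 7.01-fold, in MDA-MB-231. In HCC70 it was 0.035 ± 0.14 (interval -0.27 to 0.34). The effect in HCC70 minus that in MDA-MB-231 was -2.77 ± 0.20 (interval -3.21 to -2.34). ATOH8 was selected on the first of these values, so they are given as a description. RNA came from whole cultures, so more transcript per cell and a larger share of cells with the transcript cannot be told apart.

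HEY2, a Notch-linked repressor best known from heart and vessel development, was high in HCC70 and lower there with JQ1. Its log2 signal in HCC70 was 9.43, 9.62 and 9.50 with vehicle and 7.15, 7.41 and 7.14 with JQ1. The groups did not overlap, and the difference was -2.28 ± 0.14 (interval -2.59 to -1.97), a level 4.86-fold lower. In MDA-MB-231 the signal was 4.69, 4.85 and 5.34 with vehicle and 5.26, 5.29 and 5.27 with JQ1. The first of these vehicle samples lay under its array's lower quartile, the third lay above all 3 JQ1 samples, and the difference was 0.32 ± 0.14 (interval 0.01 to 0.62). The effect in HCC70 minus that in MDA-MB-231 was -2.60 ± 0.20 (interval -3.03 to -2.16). With JQ1 the 3 HCC70 samples still lay above every MDA-MB-231 sample. Without vehicle replicate 3 of MDA-MB-231 the difference in that line was 0.50, and without vehicle replicate 1 it was 0.18.

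HEY1, the close relative of HEY2 and also a Notch target, was dim throughout, and all 12 values lay under the lower quartile of their arrays. Its log2 signal in MDA-MB-231 was 4.62, 4.26 and 3.79 with vehicle and 3.73, 3.61 and 4.0 with JQ1. The groups overlapped, and the difference was -0.44 ± 0.17 (interval -0.82 to -0.07). In HCC70 the signal was 3.99, 4.02 and 4.09 with vehicle and 3.59, 3.76 and 3.88 with JQ1. Here the JQ1 samples were all below the vehicle samples, and the difference was -0.29 ± 0.17 (interval -0.66 to 0.09). Without vehicle replicate 3 of MDA-MB-231 the difference in that line was -0.66, and without vehicle replicate 1 it was -0.24. The effects of the lines differed by 0.15 ± 0.24 (interval -0.38 to 0.68). At levels this dim the size of a difference between groups is uncertain.

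HES4, a HES-family repressor, had similar levels with and without JQ1 in MDA-MB-231. Its log2 signal there was 6.46, 6.93 and 6.94 with vehicle and 6.42, 6.93 and 7.15 with JQ1. Both groups had a low replicate 1, and the difference was 0.05 ± 0.19 (interval -0.35 to 0.46). In HCC70 the signal was 8.15, 8.24 and 7.80 with vehicle and 7.60, 7.70 and 7.87 with JQ1. The groups overlapped through replicate 3, and the difference was -0.34 ± 0.19 (interval -0.75 to 0.07). The effects of the lines differed by -0.39 ± 0.27 (interval -0.97 to 0.18), and a difference of this size was not resolved by 3 arrays a group.

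Counted over the 4 measured members, 1 was called in MDA-MB-231 at an adjusted p under 0.05, namely ATOH8, where 27.8% of all genes were called (10.8% higher and 17.0% lower with JQ1). Its groups alone did not overlap, against 38.0% of all genes. In HCC70 1 member was called, HEY2, where 21.7% of all genes were called (9.18% higher and 12.5% lower), and the groups of HEY1 and HEY2 did not overlap, against 37.4% of all genes. ATOH8 and HEY2 were the 2 members whose JQ1 effects were called different between the lines, against 15.0% of all genes. The members were chosen with these contrasts known, so nothing is read from the counts. Without vehicle replicate 3 of MDA-MB-231, 3 members (ATOH8, HEY1 and HEY2) were called in that line. Of all called genes 61.2% were lower with JQ1 in MDA-MB-231 and 57.7% in HCC70. With each array centred on its median these shares were 48.9% and 43.9%, and after quantile normalization 48.6% and 50.4%.

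**Figure D2:**
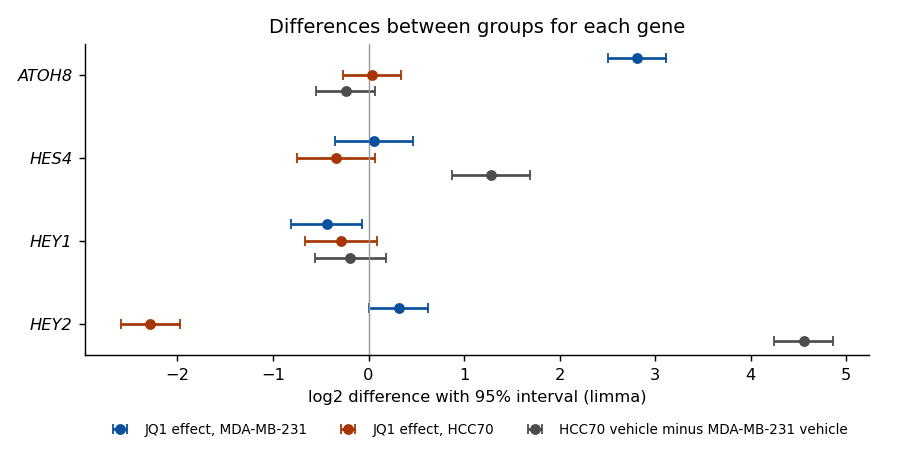
Log2 difference with 95% interval (horizontal axis) of the 4 measured members in each comparison, from the limma fit to 12 arrays. ATOH8 lies at 2.81 for JQ1 in MDA-MB-231, and HEY2 lies at -2.28 for JQ1 in HCC70 and at 4.56 for the vehicle-treated lines.

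The lines were then compared without JQ1, a contrast the choice of members did not name, although it shares its vehicle arrays with the JQ1 comparisons. HEY2 was 23.5-fold higher in HCC70 vehicle than in MDA-MB-231 vehicle (log2 difference 4.56 ± 0.14, interval 4.25 to 4.86, limma adjusted p = 5.49e-11). HES4 was 2.43-fold higher in HCC70 (1.28 ± 0.19, interval 0.88 to 1.69, limma adjusted p = 7.19e-05). The MDA-MB-231 samples of HEY2 lay near their arrays' lower quartiles, 1 of them under it, so the size of its fold is uncertain. For both genes all 3 HCC70 samples lay above all 3 MDA-MB-231 samples. ATOH8 differed by -0.24 ± 0.14 (interval -0.55 to 0.07, limma adjusted p = 0.193) and HEY1 by -0.19 ± 0.17 (interval -0.57 to 0.19, limma adjusted p = 0.414), and the samples of both overlapped. Without vehicle replicate 3 of MDA-MB-231 the HEY1 difference was -0.41 with a limma adjusted p of 0.0345, and without vehicle replicate 1 it was 0.008. Thus 2 of 4 members were called, against 47.0% of all genes, and 2 of 4 did not overlap, against 55.2% of all genes.

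The lines were also compared averaged over both treatments, a contrast in which the JQ1 effects cancel only as far as they are equal in both lines. HES4 was 2.12-fold higher in HCC70 (1.09 ± 0.13, limma adjusted p = 9.6e-06). HEY1 differed by -0.11 ± 0.12 (limma adjusted p = 0.474). The ATOH8 value, -1.63 ± 0.10, is set by the MDA-MB-231 JQ1 samples on which the gene was chosen and is a description. The HEY2 value, 3.26 ± 0.10, also holds JQ1 effects that differed between the lines and is likewise a description. With both, 3 of 4 members were past the threshold, against 54.4% of all genes.

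The other helix-loop-helix genes were taken from lists of E proteins, of further repressors and of tissue factors. Of 45 measured, 5 rose and 2 fell in MDA-MB-231, with a median difference of 0.14 against 0.017 over all genes, and 0 rose and 4 fell in HCC70, with a median of 0.015 against 0.006. The 7 of 45 and 4 of 45 called stand beside 27.8% and 21.7% of all genes. With arrays centred on their medians 9 rose and 2 fell in MDA-MB-231 and 1 rose and 3 fell in HCC70, and after quantile normalization 5 rose and 1 fell in MDA-MB-231. TCF12, an E protein, fell in both lines. It fell by 0.66 ± 0.09 in MDA-MB-231 (limma adjusted p = 0.000168) and fell by 0.76 ± 0.09 in HCC70 (8.2e-05). TCF3, which encodes the E proteins E12 and E47, fell by 0.38 ± 0.09 in MDA-MB-231 (limma adjusted p = 0.00832) and fell by 0.30 ± 0.09 in HCC70 (0.0362). The HCC70 call of TCF3 ended, at 0.081 to 0.147, without vehicle replicate 1 or 3 or JQ1 replicate 1 or 2 of that line, at 0.0964 with centred arrays and at 0.0534 with the line fitted alone. Its MDA-MB-231 call ended at 0.0528 after quantile normalization. Among the 6 further repressors measured, HES3 rose in MDA-MB-231 by 0.61 ± 0.12 (limma adjusted p = 0.00192). HES2 fell by 0.69 ± 0.12 in HCC70 (limma adjusted p = 0.000912) and HES5, a classical Notch target, fell by 0.58 ± 0.17 (0.0244).

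HES5 had group means of 4.35 and 4.60 in MDA-MB-231 and of 4.63 in HCC70 with JQ1, all below the arrays' lower quartiles, so the size of its fall in HCC70 is uncertain. Its HCC70 call ended without any of 4 HCC70 arrays in turn (limma adjusted p of 0.0658 to 0.0905), namely vehicle replicates 1 and 3 and JQ1 replicates 1 and 2. Of the 36 tissue factors measured, 4 rose in MDA-MB-231 and 0 were called in HCC70, and 12 were under the lower quartile on all arrays. TCF24 rose by 0.39 ± 0.12 (limma adjusted p = 0.0275) and FIGLA, a germ-cell factor, by 0.39 ± 0.13 (0.0383). The TCF24 call ended without replicate 2 or 3 of either MDA-MB-231 group (0.0596 to 0.0928) and at 0.147 without both arrays numbered 3. The FIGLA call ended without each of 6 arrays in turn (0.0508 to 0.159), all MDA-MB-231 arrays but vehicle replicate 3 and also HCC70 vehicle replicate 2. It also ended with the replicate number as a block over both lines (0.0566) or within each line (0.0611), with the line fitted alone (0.0623) and with trended robust moderation (0.055). FIGLA was dim, with means of 4.28 and 4.67 in MDA-MB-231. Over the 12 single omissions the number of these helix-loop-helix genes called ran from 4 to 10 in MDA-MB-231 and from 2 to 5 in HCC70. It was 4 in MDA-MB-231, in place of 7, without vehicle replicate 1 or 2 or JQ1 replicate 2 or 3 of that line or vehicle replicate 2 of HCC70. It was 2 in HCC70, in place of 4, without vehicle replicate 1 or 3 or JQ1 replicate 2 of that line.

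BMP pathway genes were examined because ATOH8, SMAD6 and SMAD7 are among the known targets of the pathway. Of 42 measured, 9 rose and 5 fell in MDA-MB-231 (median 0.11) and 3 rose and 6 fell in HCC70 (median 0.05), against medians of 0.017 and 0.006 over all genes. The 14 of 42 and 9 of 42 called stand beside 27.8% and 21.7% of all genes. With centred arrays 6 rose and 5 fell in HCC70. Among 13 ligands, BMP8B rose in MDA-MB-231 by 0.51 ± 0.09 (limma adjusted p = 0.0011) and BMP6 by 0.41 ± 0.11 (0.0171), the latter call ending at 0.0557 to 0.0626 without vehicle replicate 1 or 2 or JQ1 replicate 1. BMP5 fell by 1.40 ± 0.15 there (limma adjusted p = 1.16e-05) to a mean of 3.76, under the arrays' lower quartiles, so the size of the fall is uncertain. In HCC70 BMP3 fell by 0.65 ± 0.12 (limma adjusted p = 0.00132) and BMP4 fell by 0.36 ± 0.10 (0.0206). The BMP4 call ended at 0.0508 to 0.104 without any of 4 HCC70 arrays (vehicle replicates 1 and 2, JQ1 replicates 2 and 3), at 0.0616 with arrays centred on their medians and at 0.0519 with the line fitted alone.

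BMP4 was the ligand with the widest gap between the vehicle-treated lines, with means of 11.31 in MDA-MB-231 and 7.01 in HCC70 (19.6-fold, limma adjusted p = 4.15e-12). Of the 4 receptors and co-receptors measured (ACVRL1, ENG, HJV and NEO1), NEO1, a co-receptor, rose in MDA-MB-231 by 1.07 ± 0.18 (limma adjusted p = 0.000716) and 0 were called in HCC70. The receptor genes BMPR1A, BMPR1B, BMPR2, ACVR1, ACVR2A and ACVR2B were not analysed here. Among the 4 SMADs that carry the BMP signal, SMAD9 rose in MDA-MB-231 by 0.68 ± 0.14 (limma adjusted p = 0.00206). SMAD1 fell by 0.46 ± 0.11 in MDA-MB-231 (limma adjusted p = 0.00505) and fell by 0.41 ± 0.11 in HCC70 (0.0136). The HCC70 call of SMAD1 ended at 0.053 to 0.054 without vehicle replicate 1 or JQ1 replicate 3.

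Of the inhibitors of BMP signalling, several are themselves induced by it. SMAD6, an intracellular inhibitor, had means of 6.34 ± 0.38 with vehicle and 7.73 ± 0.18 with JQ1 in MDA-MB-231 (SD, n = 3), without overlap, and of 6.96 ± 0.04 and 6.79 ± 0.26 in HCC70. It rose in MDA-MB-231 by 1.40 ± 0.18 (limma adjusted p = 6.03e-05) and differed by -0.16 ± 0.18 in HCC70 (0.624). SMAD7, its relative, rose in MDA-MB-231 by 0.65 ± 0.12 (limma adjusted p = 0.000948) and fell by 0.78 ± 0.12 in HCC70 (0.000347). The difference between these effects was -1.56 ± 0.25 for SMAD6 (limma adjusted p = 0.000994) and -1.43 ± 0.17 for SMAD7 (7.77e-05). BAMBI, a decoy receptor, rose in both lines, by 0.98 ± 0.12 in MDA-MB-231 (limma adjusted p = 3.4e-05) and by 0.63 ± 0.12 in HCC70 (0.00146).

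FST, which encodes the secreted antagonist follistatin, fell by 2.27 ± 0.10 in MDA-MB-231 (limma adjusted p = 1.05e-08), from a mean of 8.92 to 6.65. In HCC70, where FST was 5.69 with vehicle, the difference was -0.26 ± 0.10 (limma adjusted p = 0.0972). SOSTDC1, another secreted antagonist, rose in MDA-MB-231 by 0.41 ± 0.13 (limma adjusted p = 0.0337) and fell by 0.84 ± 0.13 in HCC70 (0.000422). All 4 of its group means (3.27 to 4.46) lay under the arrays' lower quartiles, so these sizes are uncertain. BMPER fell by 0.52 ± 0.15 in MDA-MB-231 (limma adjusted p = 0.0234). This call was lost, at 0.0964 to 0.103, without replicate 1 of either group at 0.0592 with the line fitted alone and at 0.0578 with the replicate number as a block within each line. In all, 4 of 14 inhibitors rose and 2 fell in MDA-MB-231, and 1 rose and 2 fell in HCC70.

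Of 7 other BMP target genes, 0 rose and 1 fell in MDA-MB-231 and 2 rose and 1 fell in HCC70. RUNX2, a bone regulator, fell in both lines. It fell by 1.56 ± 0.10 in MDA-MB-231 (limma adjusted p = 1.93e-07) and fell by 0.58 ± 0.10 in HCC70 (0.0012). JUNB rose in HCC70 by 0.46 ± 0.10 (limma adjusted p = 0.004) and GATA2 by 0.60 ± 0.17 (0.0217). The GATA2 call ended at 0.0592 to 0.0999 without vehicle replicate 1 or JQ1 replicate 2 or 3 of HCC70. Of 4 measured TGF-beta and activin genes, 2 rose and 1 fell in MDA-MB-231 and 1 rose and 1 fell in HCC70. SKI, a SMAD corepressor, rose by 0.59 ± 0.10 and 0.75 ± 0.10 (limma adjusted p = 0.00054 and 0.000126). SKIL rose by 0.43 ± 0.10 in MDA-MB-231 (limma adjusted p = 0.00673) and fell by 0.77 ± 0.10 in HCC70 (0.000143). SMAD3 fell by 0.32 ± 0.11 in MDA-MB-231 (limma adjusted p = 0.047). This call was lost without each of 9 arrays in turn (0.0507 to 0.146), with the replicate block over both lines (0.0562) or within each line (0.0871), with the line fitted alone (0.0593), with trended robust moderation (0.0573), with centred arrays (0.106) and after quantile normalization (0.243).

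**Figure D3:**
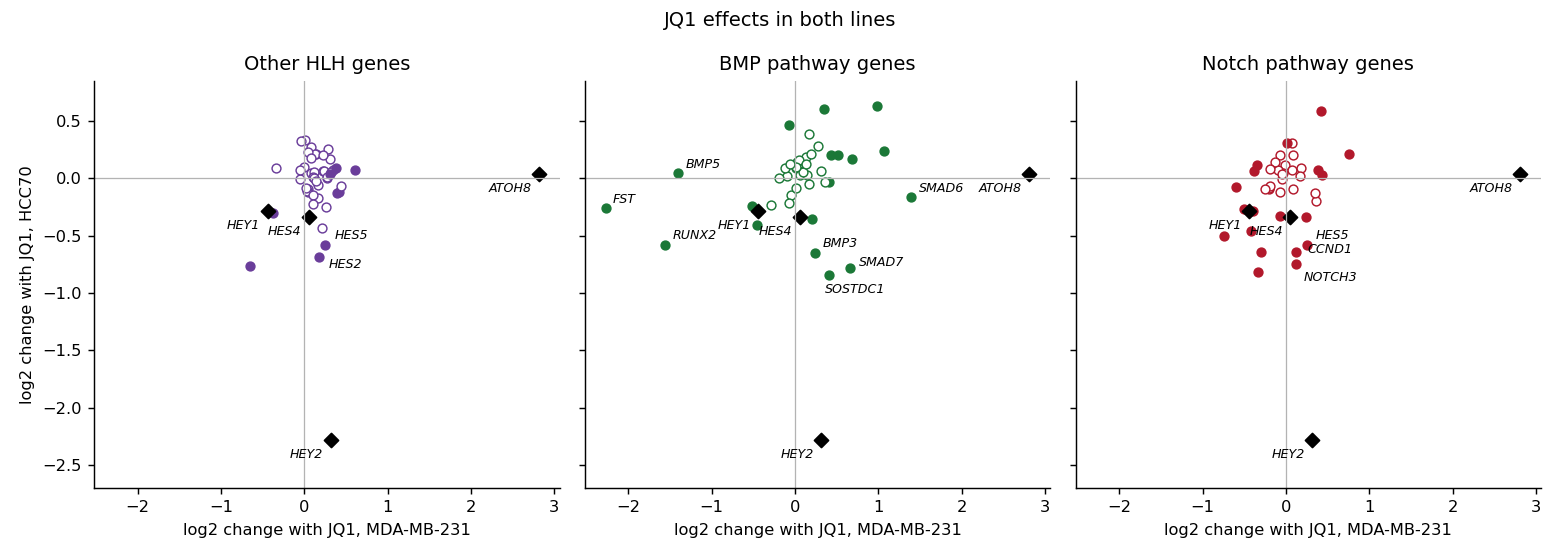
Log2 change with JQ1 in MDA-MB-231 (horizontal axis) against that in HCC70 (vertical axis) for the other helix-loop-helix, BMP and Notch genes, a point per gene, filled where called in at least 1 line and open otherwise. Black diamonds are the 4 members, with ATOH8 far right at 2.81 and HEY2 lowest at -2.28, while most listed genes lie within 1 log2 unit of 0 in both lines.

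Notch pathway genes were examined because HES4, HEY1 and HEY2 belong to gene families that Notch controls. Of 40 measured, 4 rose and 8 fell in MDA-MB-231 (median -0.05) and 2 rose and 10 fell in HCC70 (median -0.03), where the medians of all genes were as above. The 12 of 40 called in each line stand beside 27.8% of all genes in MDA-MB-231 and 21.7% in HCC70. With centred arrays 3 rose and 8 fell in HCC70, and after quantile normalization 6 rose and 7 fell in MDA-MB-231. Among 5 ligands, JAG2 rose in MDA-MB-231 by 0.75 ± 0.11 (limma adjusted p = 0.000225) and JAG1 fell by 0.60 ± 0.10 (0.000598), and 0 ligands were called in HCC70. Among the 4 receptors, 0 were called in MDA-MB-231. In HCC70 NOTCH3 fell by 0.75 ± 0.18 (limma adjusted p = 0.00988) and NOTCH2 rose by 0.31 ± 0.08 (0.0115, or 0.0561 without vehicle replicate 2). NOTCH3 was higher in HCC70 vehicle than in MDA-MB-231 vehicle, with means of 9.53 ± 0.15 and 5.90 ± 0.41 (SD, n = 3, 12.4-fold, limma adjusted p = 3.72e-09). Of the 40 Notch genes, 10 were higher and 16 lower in HCC70 in that comparison, where 47.0% of all genes were called.

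Of 20 genes of Notch processing and trafficking, 3 rose and 6 fell in MDA-MB-231, and 1 rose and 5 fell in HCC70. NUMBL, an endocytic adaptor, rose in MDA-MB-231 by 0.44 ± 0.09 (limma adjusted p = 0.00351) and MIB1, a ligand ubiquitin ligase, by 0.39 ± 0.09 (0.00428). LFNG, a glycosyltransferase that modifies the receptor, rose by 0.42 ± 0.13 in MDA-MB-231 (limma adjusted p = 0.026) and by 0.59 ± 0.13 in HCC70 (0.00448). APH1B, a gamma-secretase subunit, fell by 0.74 ± 0.13 in MDA-MB-231 (limma adjusted p = 0.000831) and fell by 0.50 ± 0.13 in HCC70 (0.0141). DTX2 fell by 0.50 ± 0.10 in MDA-MB-231 (limma adjusted p = 0.00153). DTX3 fell by 0.82 ± 0.12 in HCC70 (limma adjusted p = 0.000233), to a dim mean of 4.73, and NCSTN, another gamma-secretase subunit, fell by 0.33 ± 0.08 (0.00635).

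In the nuclear complex, RBPJ itself fell by 0.34 ± 0.09 in MDA-MB-231 (limma adjusted p = 0.00863) and differed by 0.12 ± 0.09 in HCC70 (0.42). Of the coactivator genes, MAML3 fell by 0.64 ± 0.17 in HCC70 (limma adjusted p = 0.0131) and MAML2 fell by 0.33 ± 0.09 (0.018). The MAML3 call ended at 0.0525 to 0.0589 without JQ1 replicate 1 or vehicle replicate 2, and the MAML2 call at 0.0652 to 0.0842 without vehicle replicate 1 or JQ1 replicate 3. The MAML2 call also ended at 0.168 with the mean of its clusters, where the difference was -0.24, and at 0.0588 with centred arrays. Of 6 other Notch targets, 0 were called in MDA-MB-231 and 2 fell in HCC70, HES5 as above and CCND1, which encodes cyclin D1, which fell by 0.64 ± 0.09 (limma adjusted p = 0.000198). TLE5, the 1 Groucho-family gene measured and a short form that counters the longer ones, fell by 1.34 ± 0.09 in MDA-MB-231 (limma adjusted p = 2.75e-07) and fell by 0.80 ± 0.09 in HCC70 (4.25e-05). TLE1, TLE2, TLE3, TLE4 and TLE6 were not analysed here.

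The genes whose signal followed ATOH8 most closely over the 12 arrays were LINC02649 (Pearson r = 0.985), PLPP1 (0.974), HCFC1R1 (0.974), IQUB (0.973) and EFR3B (0.973). They were sought among 3868 genes whose 4 group means spanned at least 1 log2 unit. Their log2 differences with JQ1 were 0.99 to 3.31 in MDA-MB-231 and 0.08 to 0.56 in HCC70. The genes closest to HEY2 were ERP27 (0.995), TSPAN1 (0.994), BCL2L15 (0.992), GLYATL2 (0.992) and ARHGEF38 (0.992), with differences of -1.47 to -3.96 in HCC70 and -0.06 to 0.39 in MDA-MB-231. The 12 arrays share the same 4 groups, so these correlations restate the group pattern and are a description.

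**Figure D4:**
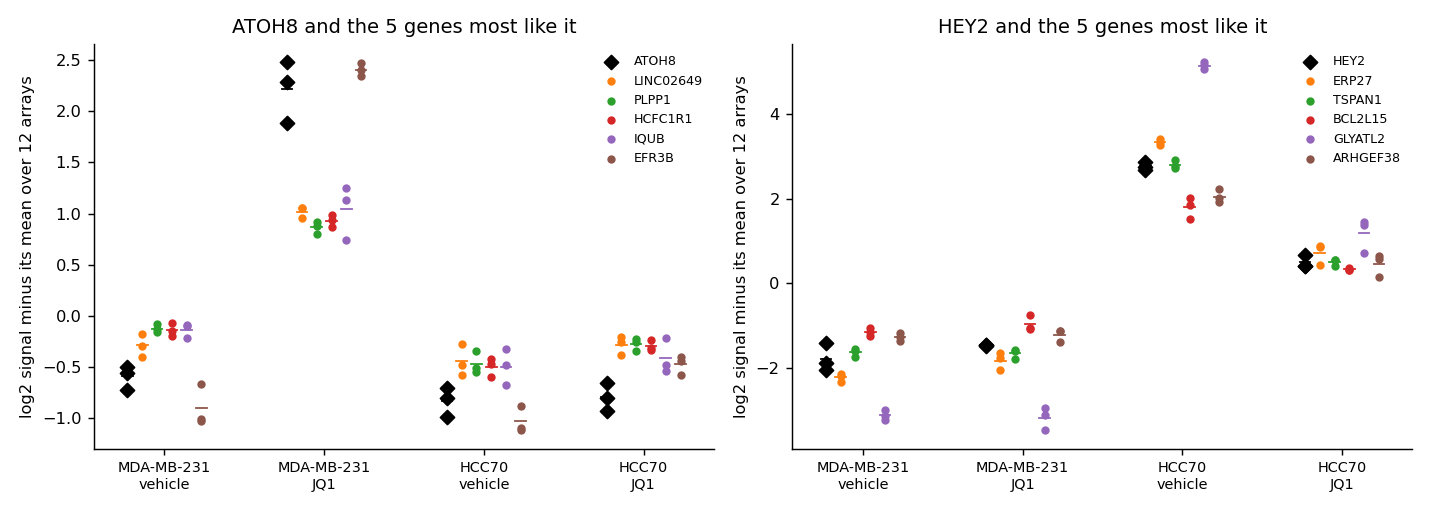
Log2 signal minus its mean over the 12 arrays (vertical axis) for ATOH8 and HEY2 (black diamonds) and the 5 genes most like each (coloured points), a point per array and a short line per group mean, by group (horizontal axis). The genes like ATOH8 are highest in MDA-MB-231 with JQ1, and those like HEY2 are highest in HCC70 with vehicle.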

How the data were processed

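RNA of 12 samples of MDA-MB-231 and HCC70 was measured on arrays, and the values used are the log2 signals of transcript clusters as deposited by the authors. Per the submitters' processing notes the tools were RMA, oligo and limma (no versions). The genome build was not given in the sources used here. Of 53617 clusters, 16098 had 1 gene symbol, 0 had several and 37519 had none. Where a gene had several clusters (779 genes), only the brightest by its mean of 12 arrays was used. This gave 14884 genes, and no dim gene was removed.

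The 4 group means were fitted with limma 3.58.1 in R 4.3.3 (lmFit, eBayes, statmod 1.5.0), with two-sided tests and a Benjamini-Hochberg adjustment across the 14884 genes. An adjusted p under 0.05 is a call. A ± value is the SE of the limma coefficient unless named SD. The members and lists were chosen with earlier results of these data known. Up to 2 called genes per direction, list and JQ1 comparison, those with the smallest p, were named, and 5 genes most like ATOH8. The same search for an ID gene could not be run, and HEY2, HES4 and HEY1 were searched after their values were seen. HES5, HEYL and DTX1 stand in 2 lists each.

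The deviations of vehicle and JQ1 arrays of the same number correlated across genes at r = 0.155, 0.121 and 0.362 in MDA-MB-231. In HCC70 these values were -0.059, 0.015 and 0.070. Arrays of unlike number gave -0.250 to 0.121 in MDA-MB-231 and -0.142 to 0.135 in HCC70. Number 3 of MDA-MB-231 thus stood furthest above the unmatched pairs, and number 2 did not exceed the highest of them. The fit printed has no block, and a block value is given where it ends a call. The procedure was tested on simulated data. Alternatives were the replicate block, each line alone, trended robust moderation, genes above the median, the mean of a gene's clusters, quantile normalization, median centring, array weights and single-array omission. A block within each line, and leaving out both MDA-MB-231 arrays numbered 3, were added after seeing the data. The calls of LFNG, SMAD7 and SOSTDC1 in MDA-MB-231 and of APH1B in HCC70 were not recomputed under these alternatives. Neither were the calls of BMP4 and NOTCH3 between the vehicle-treated lines, nor the lineage markers.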

Additional observations from a re-analysis of the deposited data

Results flagged for a closer look

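By the limma test of the difference itself, the JQ1 effect differed between the lines for 2 members and for 19 named genes. This difference is the effect in HCC70 minus that in MDA-MB-231 (log2 scale, adjusted p under 0.05), and 15.0% of all genes were called. The named genes of the helix-loop-helix, BMP, TGF-beta, Notch and TLE lists were picked for a JQ1 call in a line. Their number is therefore not comparable with that share. Over all measured genes of the lists, 2 of 45 other helix-loop-helix, 9 of 42 BMP and 8 of 40 Notch genes were called. So were 1 of 4 TGF-beta and activin genes and 1 of 1 TLE genes. For the members, ATOH8 (-2.77) and HEY2 (-2.60), the difference is a description, since they were chosen with these contrasts known. Among further helix-loop-helix repressors the differences were -0.87 for HES2 and -0.83 for HES5. Among BMP genes they were 1.44 for BMP5, -0.89 for BMP3, -0.56 for BMP4, -1.56 for SMAD6, 2.01 for FST, -1.43 for SMAD7, -1.25 for SOSTDC1, 0.98 for RUNX2 and 0.54 for JUNB. SKIL, a SMAD corepressor gene, differed by -1.20. Among Notch genes they were -0.54 for JAG2, 0.53 for JAG1, -0.87 for NOTCH3, 0.46 for RBPJ, -0.58 for MAML2 and -0.77 for CCND1, and TLE5 differed by 0.54. A further listed gene, ADAM17, and the markers EPCAM (2.00), VIM (-1.87), FN1 (-1.72) and CD14 (-0.65) were called too. BMP5 in HCC70, HES5 in MDA-MB-231 and SOSTDC1 in both lines lay under the arrays' lower quartiles, so the sizes of their differences are uncertain.

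Of these 19 genes, 14 kept this call without each array in turn. HES5 lost it in 8 of the 12 omissions (limma adjusted p of 0.0609 to 0.0787), JAG1 in 7 (0.0516 to 0.0645), JAG2 in 10 (0.054 to 0.0908), NOTCH3 in 8 (0.0743 to 0.0956) and RBPJ in 6 (0.0514 to 0.0583). Some of these difference calls also ended under other alternatives, which are not itemized here. Groups of 3 arrays are too small for a test of a single outlying sample, and none was run.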

How the results depend on the processing

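Of 410 recomputed differences of members, 395 kept their direction and side of the threshold, 8 changed sign and 7 passed the threshold newly. ATOH8 in MDA-MB-231 ranged from 2.68 to 2.97 and HEY2 in HCC70 from -2.37 to -2.23 over the 12 single-array omissions. Members called in MDA-MB-231 were 1, but 2 with array weights (ATOH8 and HEY1), 3 without both arrays numbered 3, and 1 to 3 over single omissions, with the highest value without vehicle replicate 3. Array weights raised the genes called in HCC70 from 3229 to 5110, the BMP genes called there from 9 to 15 and the other helix-loop-helix genes from 4 to 9. In MDA-MB-231 the latter were 7, but 11 with arrays centred and 2 among genes above the median, where 7 BMP genes were called in place of 14 and fewer genes were tested. Sign changes were met only for differences that were not called with all 12 arrays: HES4 in MDA-MB-231 (-0.105 to 0.258 over single omissions, -0.023 without both arrays numbered 3), ATOH8 in HCC70 (-0.071 with array weights, -0.044 to 0.102 over omissions), HEY1 between the JQ1 effects (-0.046 to 0.367) and HEY1 between the vehicle-treated lines (-0.405 to 0.008). With the replicate number as a block over both lines 4376 genes were called in MDA-MB-231 in place of 4139, and 4210 with the block within each line, and the block left the members called at 1 in each line. The restriction to genes above the median left out ATOH8 and HEY1, so it gave no count of members. The cause of these shifts was not tested. Signals under the arrays' lower quartiles, as for HEY1, limit what these arrays can resolve.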

Other observations

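The genes most like HES4 over the 12 arrays, a search made after its values were seen, were YBX2 (Pearson r = 0.964), DZIP1 (0.963), GRTP1 (0.958), MAML3 (0.954) and MGMT (0.954). MAML3, the Mastermind coactivator of Notch, also stands in the nuclear complex list above. The closest genes to HEY1 reached lower correlations, from 0.767 for CEP41 to 0.793 for FLT3LG, with CLIC5 at 0.792, TET1 at 0.791 and LOXL1-AS1 at 0.786. These values describe arrays that share 4 groups and carry no test.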
